A study of Bos taurus and Bos grunniens x Bos taurus and Bos grunniens with 18 samples.

Results

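Testis RNA of 3 yaks was compared with testis RNA of 3 cattle, gene by gene, in 6 of the 9 mRNA libraries of a series that holds 18 samples in all. The members of the comparison were all genes with an FPKM (fragments relative to transcript length and to the size of the library) of at least 1 in at least 3 of the 9 mRNA libraries, after the transcript values of each gene had been added up. This left 14091 of the 19994 genes in the deposited table. The other 3 libraries came from cattle-yaks (Dzo in the labels), the hybrid of both species, and served to estimate the spread between animals.

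The animals were adults of 4 years, came from 1 cooperative and were castrated for the study, and each library stood for a separate animal. Testis pieces were rinsed in PBS and frozen in liquid nitrogen, RNA was taken with TRIzol, ribosomal RNA was depleted, and strand-specific libraries were sequenced with paired reads of 125 nt. No treatment or transgene set the groups apart, so that the cattle and the yak libraries differed by species. The build named by the submitters, UMD3.1, is of cattle. A difference in RNA level and a difference in how well yak reads fit the cattle sequence cannot be told apart in any value given here.

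The yak (Bos grunniens) is the bovid of the Tibetan plateau and crosses with cattle. An adult testis consists mostly of germ cells in the seminiferous tubules, from spermatogonia through meiotic spermatocytes to spermatids, which pack their DNA with transition proteins and protamines. Sertoli cells support them inside the tubule, and muscle-like cells, Leydig cells, vessels and immune cells lie around it. Mitochondria carry their own small genome, which encodes core subunits of the respiratory chain and is inherited from the mother, while most subunits are encoded in the nucleus.

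The gene with the highest mean level over the 6 libraries was PRM1, protamine 1, at 19859, 16603 and 10329 FPKM in cattle and 14309, 13806 and 13588 in yak. The next, ENSBTAG00000025882, has no symbol in the table and had 10017, 9103 and 8046 FPKM in cattle and 7854, 7042 and 7694 in yak. TNP1, transition protein 1, had 4652, 3813 and 2679 FPKM in cattle and 5223, 5032 and 4158 in yak. The ranges of the groups overlapped for PRM1 and TNP1, and none of the 3 genes was called. Of 15 red cell, neutrophil and platelet genes, 4 were expressed well enough to be tested. The globin genes HBA and HBB lay under 0.3 FPKM in each cattle and yak library. The sum of this list was nonetheless higher in yak without overlap, at 53.5, 48.4 and 46.3 FPKM against 34.3, 16.5 and 17.6 in cattle. Of 14 genes of the epididymis and rete testis, 4 were tested. CRISP1 was listed at 0 in all 6 libraries, while EPCAM had 98.8 to 141 FPKM in them.

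The 6 libraries had summed FPKM of 462585 to 481551. Across genes, log2 levels correlated with r of 0.984 to 0.987 among the cattle libraries, 0.983 to 0.990 among the yak libraries and 0.948 to 0.956 between the species. Yak replicate 1 stood apart: it had 12213 genes at 1 FPKM or more against 12801 to 12973 in the other 5 libraries, and low sums of genes of the cells around the tubules. The extracellular matrix list, for instance, summed to 322 FPKM in yak replicate 1, to 655 and 677 in yak replicates 2 and 3, and to 539 to 618 in cattle. Counts of calls without it are given below for several lists.

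Between yak and cattle, 2692 of the 14091 genes differed (19.1%) at an adjusted p under 0.05 in limma on log2(FPKM + 1), with Benjamini-Hochberg adjustment over all genes tested. Of these, 1178 were higher in yak (8.36% of the genes tested) and 1514 were lower (10.7%). The share of calls that were higher, 43.8%, depended on the scaling: it was 55.7% (1695 higher and 1346 lower) after median-ratio scaling and 52.3% (1447 higher and 1318 lower) after quantile normalisation. Before adjustment, 4709 genes had a p under 0.05.

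Most differences were small. The median log2 fold change, yak minus cattle, was -0.06 over all genes tested, and the middle 90% lay between -0.80 and 0.67. For 11775 genes (83.6%) the 95% interval of the log2 fold change lay within -1 and 1, and 1189 of these were nonetheless called. A call with an absolute log2 fold change of at least 1 was made for 707 genes (5.02%), 302 higher and 405 lower. At 2 or more there were 75 higher and 67 lower, and at 4 or more 6 higher and 14 lower. The share of genes called was alike in 4 equal groups of genes ordered by mean level, at 19.2%, 20.5%, 20.1% and 16.6% from the lowest to the highest.

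A call was taken to have held when the gene stayed called in the same direction in each of 6 further fits, each without 1 cattle or yak library. Of the 2692 calls, 1435 held (53.3%), and of the 707 with the larger change 628 held (88.8%). The fewest calls, 1760, were made without cattle replicate 2. The cattle and yak libraries did not overlap in 5622 genes (39.9%), among them 2678 of the called genes. Genes without a symbol were called in 26.8% of cases (326 of 1218), and genes with one in 18.4%.

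**Figure D1:**
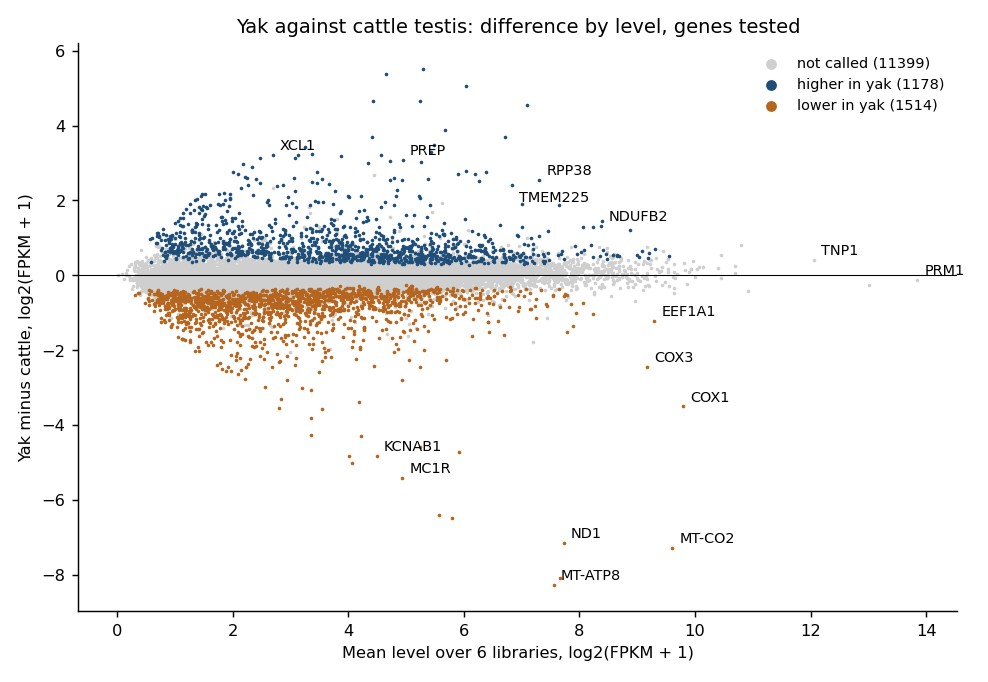
Each point is 1 of the 14091 genes tested. The x axis gives the mean level over the 6 cattle and yak libraries as log2(FPKM + 1) and the y axis the yak minus cattle difference on that scale. Called genes are coloured by direction, 1178 higher and 1514 lower in yak. Genes of the mitochondrial genome lie far below the rest at high levels, while PRM1 and TNP1 at the right lie near 0.

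The lowest values in yak were those of the mitochondrial genome. Of its 13 protein genes, 12 were lower in yak and all 12 calls held, with a median log2 fold change of -5.01 over the 13. Their summed level was 6657, 6687 and 4142 FPKM in the cattle libraries and 284, 389 and 442 FPKM in the yak libraries. As a share of all FPKM this was 1.25% ± 0.309 (SD, n = 3) in cattle and 0.0783% ± 0.0175 (SD, n = 3) in yak, without overlap (exact two-sided permutation test, p = 0.1, the smallest that 3 against 3 can give).

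The genes differed widely in how low they were. MT-ATP8 (ENSBTAG00000043564), a small subunit of the ATP synthase, had 445, 452 and 228 FPKM in cattle and 0, 0.288 and 0.202 FPKM in yak, a log2 fold change of -8.28 ± 0.24 (SE; limma adjusted p = 2.14e-08). MT-CO2, the cytochrome oxidase subunit that takes up electrons from cytochrome c, had 1747, 1778 and 1108 FPKM against 7.11, 9.48 and 9.80, a log2 fold change of -7.28 ± 0.20 (SE). COX1, the catalytic subunit of the same oxidase, had 1713, 1826 and 1341 FPKM against 95.2, 167 and 177, a log2 fold change of -3.50 ± 0.22 (SE). Within 1 enzyme complex the yak level was thus below 10 FPKM for 1 subunit and above 95 FPKM for another.

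The complex I subunits MT-ND3, ND1, MT-ND4L, MT-ND6, MT-ND2, MT-ND4 and ND5 had log2 fold changes of -8.10, -7.16, -6.48, -5.01, -4.71, -4.59 and -4.31. MT-CYB, the cytochrome b of complex III, had -6.39 and COX3, the other large oxidase subunit, -2.46. MT-ATP6, the proton channel subunit of the ATP synthase, was the exception. It had 32.4, 28.9 and 20.5 FPKM in cattle and 35.0, 18.6 and 52.8 in yak, with overlap and a log2 fold change of 0.28 (95% interval -0.44 to 0.99, not called). Its reading frame overlaps that of MT-ATP8, so reads from the shared stretch can be counted for either gene. Whether this bears on the values was not tested.

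The cattle-yak libraries, which carry 1 parent's mitochondrial genome, gave 1177, 1094 and 1257 FPKM for the same 13 genes. COX1 had 582, 586 and 610 FPKM in them, and MT-ATP8 0.411, 0.255 and 0.198. The labels do not give the direction of the cross.

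**Figure D2:**
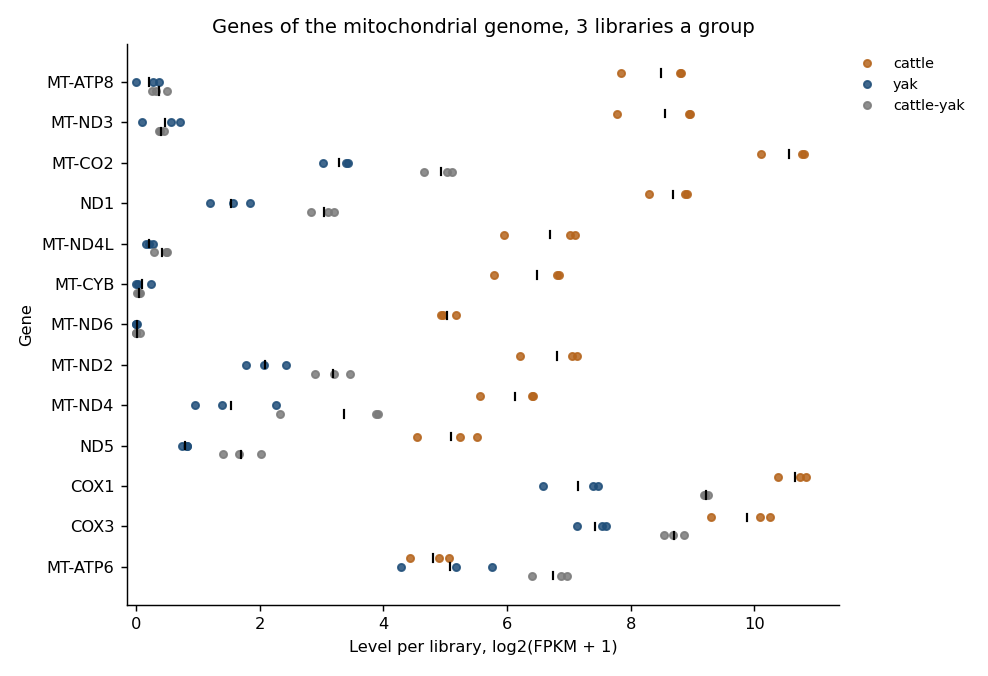
Levels of the 13 protein genes of the mitochondrial genome in each library, on the x axis as log2(FPKM + 1), with 1 row per gene on the y axis. Points are libraries, 3 per group, and short bars are group means. Cattle lie to the right of yak without overlap in 12 genes, and MT-ATP6 overlaps.

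Of the nuclear genes of the respiratory chain, calls were mostly higher in yak. Of 67 tested members of 72 listed, 16 were higher in yak and 2 lower (26.9% called, against 19.1% of all genes), and their median log2 fold change was 0.20, that of all genes -0.06. The count of higher genes was 22 after median-ratio scaling and 12 after quantile normalisation, and fell to between 7 and 11 when 1 library was left out, with 6 higher and 2 lower calls that held; the fewest were found without yak replicate 3 (7) and without cattle replicate 3 (8). NDUFB2, an accessory subunit of complex I, had 160, 205 and 207 FPKM in cattle and 466, 456 and 492 in yak, a log2 fold change of 1.31 ± 0.12 (SE; limma adjusted p = 8.93e-05). ATP5F1D, the delta subunit of the ATP synthase, had 17.9, 16.0 and 14.9 FPKM against 42.0, 35.6 and 46.1 (1.29 ± 0.12). The libraries of both genes were separate by species.

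COX7A2, a small subunit of cytochrome oxidase, was among the most abundant members, with 447, 535 and 431 FPKM against 744, 681 and 693, a log2 fold change of 0.59. The 2 lower members were SDHA, the catalytic subunit of succinate dehydrogenase, at 47.2, 51.1 and 49.4 FPKM against 22.2, 27.6 and 27.9 (-0.91), and NDUFAB1, the mitochondrial acyl carrier protein, at 69.1, 79.9 and 66.9 against 45.8, 42.9 and 52.0 (-0.61). Both were named after their values were seen. In the summed level of the list, all 3 yak libraries (9503, 9447 and 9666 FPKM) lay above all 3 cattle libraries (7805, 8172 and 7443 FPKM; exact permutation p = 0.1).

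Among called genes, the 15 highest and the 15 lowest with a symbol were singled out, provided that the groups were separate and that the group with more RNA averaged 5 FPKM or above. The 15 lowest included 10 mitochondrial genes. Of the other 5, MC1R (ENSBTAG00000023731), the melanocortin receptor of pigment cells that sets the balance of black and red coat pigment, was the lowest. It had 48.2, 56.6 and 71.3 FPKM in cattle and 0.301, 0.469 and 0.364 in yak, a log2 fold change of -5.42 ± 0.32 (SE; limma adjusted p = 3.73e-06). Each cattle library thus lay over 48 FPKM and each yak library under 0.5. Its nearest tested neighbours in the RefSeq gene order were not lower: TCF25 was higher in yak by 0.58 and TUBB3 had -0.01 (95% interval -0.42 to 0.41).

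KCNAB1 (ENSBTAG00000018465), a beta subunit of voltage-gated potassium channels, had 45.0, 40.5 and 41.8 FPKM in cattle and 0.556, 0.582 and 0.417 in yak, a log2 fold change of -4.84. EBD, an enteric beta-defensin, had 43.1, 24.7 and 22.6 FPKM against 0.181, 0 and 0 (-4.82). It belongs to a family of near-identical genes among which reads can be split, which was not tested. SERPIND1, the thrombin inhibitor heparin cofactor II, had 19.5, 8.91 and 26.0 FPKM against 0.428, 0.193 and 0.130 (-3.83). APOBEC4, a member of the cytidine deaminase family with testis expression in mammals, had 20.9, 21.1 and 19.4 FPKM against 0.555, 0.974 and 0.915 (-3.57). In all 4 genes the yak libraries lay under 1 FPKM and the cattle libraries over 8.

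MC1R was read beside other pigment cell genes. Of 9 tested members of a list of 13, MC1R, KCNAB1, ASIP and MLANA were lower and no member was higher (44.4% called, against 19.1% of all genes). KCNAB1 is not a pigment gene and was put on the list because its difference was known, which raises that share. ASIP, the agouti signal that blocks MC1R, had 3.16, 6.31 and 10.4 FPKM in cattle and 0, 0.242 and 0.461 in yak (-2.53). MLANA, a melanosome protein, had 5.204, 9.54 and 6.15 against 0.432, 0.714 and 0.173 (-2.45). TYR, the tyrosinase that begins melanin synthesis, had 18.9, 16.7 and 20.8 against 19.8, 16.7 and 16.4 (-0.09, 95% interval -0.50 to 0.32), and PMEL, a fibril protein of melanosomes, had 10.5, 16.5 and 11.6 against 14.2, 13.6 and 13.0 (0.10, -0.25 to 0.45). The groups overlapped for both. TYRP1 and DCT, defining enzymes of pigment cells, were under 0.14 FPKM in every cattle and yak library.

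The 15 highest genes with a symbol had log2 fold changes of 2.41 to 3.23. Genes without a symbol lay above them, among them all 6 with a log2 fold change of 4 or more. The highest of these, ENSBTAG00000035654, averaged 0.706 FPKM in cattle and 76.0 in yak (5.51). XCL1 (ENSBTAG00000009938), a chemokine that T and natural killer cells release, had 0.524, 0.0676 and 0.159 FPKM in cattle and 11.97, 8.22 and 11.9 in yak, a log2 fold change of 3.23 ± 0.24 (SE; limma adjusted p = 1.59e-05). KLRG1, an inhibitory receptor of the same cells, had 0.116, 0.408 and 0.220 FPKM against 10.2, 6.18 and 4.76 (2.64). Both were under 0.6 FPKM in each cattle library and above 4 FPKM in each yak library.

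Several enzymes of small molecules were in this group. PREP (ENSBTAG00000016281), a peptidase that cuts after proline, had 4.36, 5.01 and 7.30 FPKM in cattle and 58.3, 59.9 and 43.7 in yak (3.08). NT5C, a nucleotidase that removes phosphate from nucleotides, had 4.20, 4.92 and 4.87 against 49.0, 42.7 and 47.7 (3.07). KYAT1, a kynurenine aminotransferase, had 2.88, 11.1 and 9.53 against 74.2, 87.1 and 39.7 (3.03). In the RefSeq order both nearest tested neighbours of NT5C and both of KYAT1 were uncalled. A neighbour was called the same way beside APOBEC4 (COLGALT2, -1.16), RPP38 (ACBD7, 0.86), CES1 (SLC6A2, 0.67) and VWA5B2 (ABCF3, 0.44). One was called the opposite way beside MC1R (TCF25, 0.58), KLRG1 (A2M, -1.84), TMEM225 (VWA5A, -1.32) and GPR137B (NID1, -0.75). The same was so beside PREP (POPDC3, -0.72), SPINK4 (BAG1, -0.60) and SERPIND1 (PI4KA, 0.48, and SNAP29, 0.52). CES1, a carboxylesterase from a multigene family, had 0.632, 0.527 and 0.326 against 6.94, 10.5 and 6.84 (2.58).

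Membrane and secretory genes made up another share. GPR137B, a lysosomal membrane protein, had 1.90, 1.43 and 0.860 FPKM in cattle and 13.6, 12.5 and 14.004 in yak (2.61). CADPS, which primes vesicles for release, had 2.13, 1.62 and 3.46 against 21.6, 19.8 and 15.8 (2.58). TMEM225 (ENSBTAG00000033502), a membrane protein of sperm in mouse, had 41.1, 44.4 and 23.2 against 209, 164 and 198 (2.41). In these 3 genes the lowest yak library, at 12.5, 15.8 and 164 FPKM, lay above the highest cattle library, at 1.90, 3.46 and 44.4 FPKM.

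The other genes of the group were VWA5B2 (2.72), BCAS1, a protein of myelin-forming cells (2.60), GIF, the gastric carrier of vitamin B12 (2.56), SPINK4, a protease inhibitor (2.46), and CHCHD5, a protein of the mitochondrial intermembrane space (2.41). RPP38, a subunit of ribonuclease P, had 265, 260 and 235 FPKM in yak, but its cattle libraries were spread over 132, 29.5 and 19.6, so that its log2 fold change of 2.54 carried an SE of 0.53. All 15 calls held.

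**Figure D3:**
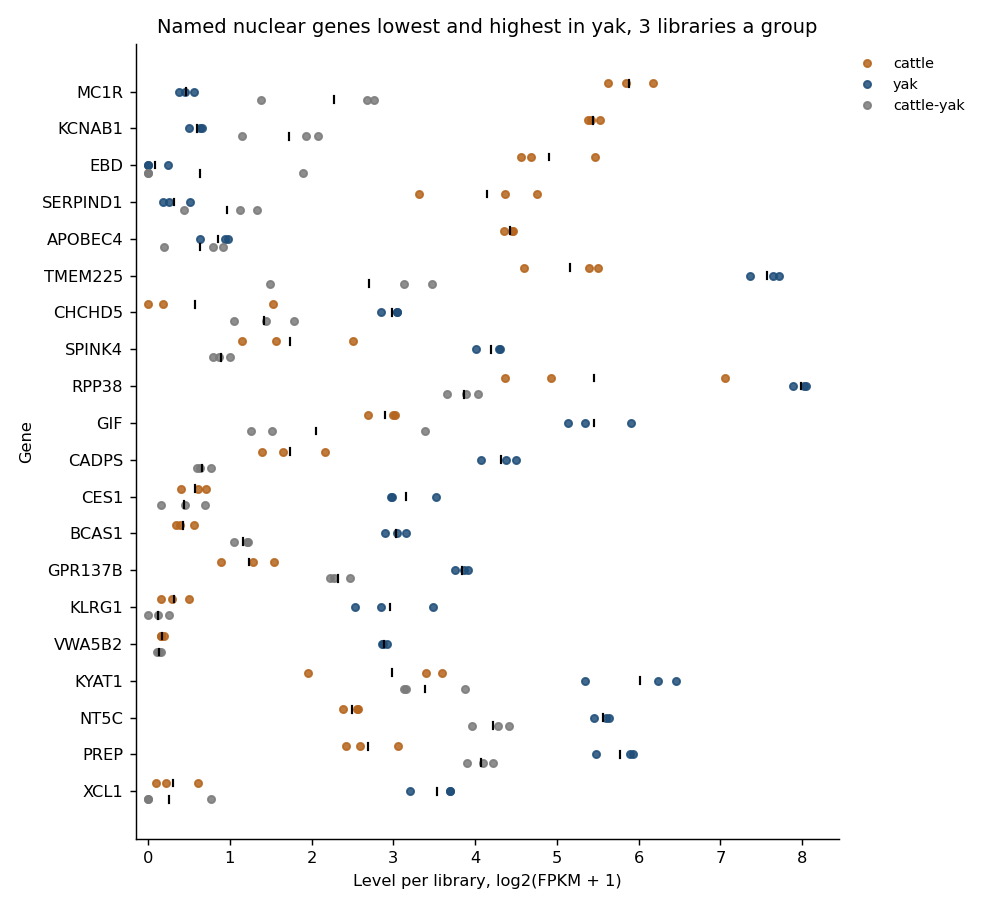
Levels in each library of 20 nuclear genes, the 5 lowest and 15 highest in yak among called genes with a symbol and 5 FPKM or above in 1 group, on the x axis as log2(FPKM + 1), with 1 row per gene on the y axis. Points are libraries, 3 per group, and short bars are group means. Cattle and yak points are separate in every row, and the rows from MC1R to APOBEC4 are lower in yak while those from TMEM225 to XCL1 are higher.

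A gene was counted as near absent in 1 species when all 3 of its libraries were under 0.1 FPKM and all 3 of the other were at 1 or more. In yak 14 genes were near absent and in cattle 13, with 7 and 6 of them without a symbol. Near absent in yak were KRT80 and DSG4, a keratin and a desmosomal cadherin of skin and hair, with 2.85, 1.96 and 2.31 and with 1.87, 1.90 and 2.64 FPKM in cattle. RXFP2, the receptor of the Leydig cell hormone INSL3, had 1.39, 1.39 and 2.60 FPKM in cattle and 0, 0.0742 and 0.0545 in yak. WFDC10A, of the whey acidic protein family, had 3.61, 3.24 and 2.47 FPKM in cattle and was listed at 0 in all 3 yak libraries.

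Near absent in cattle were NOTO, a homeobox gene of the notochord, with 3.94, 2.56 and 3.06 FPKM in yak, and KLK15, a kallikrein protease, with 3.19, 3.07 and 3.03. FEV, a transcription factor of serotonin neurons, and CATHL4, the antimicrobial peptide indolicidin, were listed at 0 in all 3 cattle libraries and had 2.09, 3.06 and 3.18 and 3.17, 1.11 and 3.52 FPKM in yak. NFAM1, an adaptor of immune receptors, had 2.22, 2.58 and 2.31 FPKM in yak. CATHL4 belongs to a family of similar cathelicidin genes. Levels of a few FPKM are low for this tissue, and the depth behind them is unknown.

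Some differences concerned the split of a gene between its transcripts. Of 14721 transcripts tested in the same way, 2651 were called (18.0%). Among 628 genes with at least 2 tested transcripts, 15 had transcripts called in opposite directions, and 8 of these were not called as a sum. RUFY2, an endosomal adaptor, had 7.98, 7.65 and 10.7 FPKM in cattle and 8.45, 8.12 and 8.32 in yak as a sum. All of it was given to transcript ENSBTAT00000003382 in cattle and to ENSBTAT00000054280 in yak, where the former was listed at 0 in every library.

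ZC3H14, a zinc finger protein that binds poly(A) tails, had 1 transcript at 134.5, 134.8 and 149 FPKM in cattle and 11.05, 11.9996 and 10.6 in yak (-3.52) and another at 97.1, 112 and 125 against 171, 169 and 162 (0.59). As a sum the gene was called lower at -0.49, a call that did not hold without cattle replicates 2 or 3 or yak replicates 2 or 3 (limma adjusted p = 0.0546 to 0.0698). SULT1A1, a sulfotransferase, and ITGA2B, the platelet integrin alpha chain, had like pairs of log2 fold changes, 1.54 with -2.48 and 2.41 with -1.34. The RALB pair, 1.54 with -3.06, rested on yak libraries that differed among themselves, at 0.0140, 0.0137 and 13.5 FPKM for the lower transcript. How reads are shared between transcripts of a gene is an estimate made by the authors' tool.

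Called genes were also viewed beside their neighbours. Of all genes tested, 8.36% were called higher and 10.7% lower, so some neighbours share a call in any gene order. A neighbour was the nearest tested protein-coding gene with a unique symbol, before or after, in the RefSeq order, at any distance. Of 2264 called genes with such a neighbour on both sides, 464 (20.5%) had a neighbour called the same way on either side. A match before or after was enough, so this share cannot be set directly against the per-gene shares of 8.36% and 10.7%. Whether 20.5% exceeds the share in a random gene order was not tested. Large changes were counted only for called genes with separate groups that averaged 5 FPKM or above in the species with more RNA. Of the 60 such genes with an absolute log2 fold change of at least 2, 15 had a neighbour called the same way on either side.

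In the fit that shares its spread with the cattle-yak libraries, few germ cell genes were called. Shares of genes called in lists of stage-specific genes, 17 to 46 tested genes each save for late spermatocytes with 12, lay below the 19.1% of all genes, at 0% to 11.8%. With the cattle and yak libraries alone the counts were mostly larger: 3 higher and 2 lower of 29 for meiotic prophase, 2 lower of 12 for late spermatocytes, 5 higher and 2 lower of 46 for the sperm tail, 3 higher of 22 for the piRNA pathway, 2 lower of 27 for the acrosome and 2 lower of 14 for spermatogonia. For spermatogonia, 2 of 17 genes were lower and none higher, with a median log2 fold change of -0.22. Without yak replicate 1, whose sum for this list was the lowest, 1 was lower and the median was -0.11. Without cattle replicates 2 or 3 or yak replicate 2, 1 was lower as well. STRA8, the retinoic acid target that starts meiosis, had 18.9, 18.7 and 12.5 FPKM in cattle and 9.14, 6.93 and 7.49 in yak (-0.98 ± 0.19 SE, limma adjusted p = 0.00613), and this call held. DAZL, a germ cell RNA-binding protein, had 84.6, 90.4 and 92.2 against 61.6, 64.2 and 66.4 (-0.47), a call lost without cattle replicates 2 or 3 or yak replicates 1 or 2 (adjusted p = 0.0532 to 0.0630).

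Of 29 genes of meiotic prophase, 1 was higher and 1 lower, and neither call held. SYCE3, a central element protein of the synaptonemal complex, had 68.8, 98.4 and 65.3 FPKM in cattle and 177, 160 and 148 in yak (1.07), a call lost without cattle replicate 1 and without cattle replicate 3 (largest adjusted p = 0.0528). HFM1, a helicase of crossover formation, had 10.8, 10.97 and 15.04 against 7.17, 4.68 and 5.199 (-0.99), with an adjusted p of 0.0507 to 0.0649 without cattle replicate 3 or yak replicates 2 or 3. SYCE1, of the same central element, had 108, 108 and 104 against 113, 93.6 and 110 (-0.01). Among late spermatocyte genes, CCNB3, a meiotic cyclin, was lower at 2.34, 3.55 and 3.32 FPKM in yak against 5.31, 5.89 and 5.16 (-0.68).

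None of the 27 genes of the spermatid nucleus was called in limma, with a median log2 fold change of 0.09. The spread was shared with the cattle-yak libraries, in which PRM1 had 25.8, 41.3 and 5.29 FPKM. With the cattle and yak libraries alone, 2 genes of the list were higher and 1 lower. The 95% interval lay within -1 and 1 for 21 of the 27, but PRM1 itself had -1.38 to 1.15. Of 17 genes of germ cell histones, H2AFY, the histone variant macroH2A1, was lower at 2.49, 4.21 and 5.71 FPKM in yak against 10.8, 11.04 and 11.5 in cattle (-1.29).

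Of 46 genes of the sperm tail, 4 were higher in yak and none lower, with 2 calls that held. Quantile normalisation and the replicate block each gave 1 lower call, and the cattle and yak libraries alone gave 2. Without cattle replicates 1 or 2 or yak replicates 1 or 2, 2 genes were higher. Without cattle replicate 3 or yak replicate 3, 3 were higher. CATSPER3, a pore subunit of the calcium channel of the sperm tail, had 13.2, 12.3 and 13.6 FPKM in cattle and 26.1, 27.0 and 22.3 in yak (0.90 ± 0.12 SE, limma adjusted p = 0.000669). TPPP2, a tubulin-binding protein of the tail, had 235, 172 and 239 against 401, 319 and 400 (0.80). Their groups were separate. The most abundant members were not called. Among them, ODF2 went the other way without overlap, at 783, 525 and 551 against 412, 371 and 347 (-0.70, 95% interval -1.23 to -0.16). ROPN1 had -0.05 and SPA17 0.15, both with overlap. The list had a median of -0.01 and an interval within -1 and 1 for 39 of 46 genes.

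Acrosome and sperm-egg genes gave 1 higher and 1 lower call of 27, and the piRNA pathway, a defence against mobile elements in the germ line, 2 higher of 22. None of these calls held. Neither list had a call without yak replicate 1, cattle replicate 1 or cattle replicate 2. The piRNA list had no higher call in any fit that left out a library. The interval lay within -1 and 1 for 22 of the 27 and for all 22. Summed over the acrosome list, the yak libraries, at 4267, 3707 and 3518 FPKM, lay above the cattle libraries, at 3379, 3340 and 3453 (exact permutation p = 0.1).

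Counts for the cells around the germ line depended on yak replicate 1, and several also on other libraries. In bulk tissue, fewer cells of a type and less RNA per cell cannot be told apart. Of 24 Sertoli cell genes, FSHR, the receptor of follicle-stimulating hormone, was the only call (limma adjusted p = 0.0499). The log2 fold change of FSHR was -0.80, while that of its most abundant transcript taken alone was 0.069, the opposite direction. The call of FSHR did not hold: of the 6 fits without a library, only that without yak replicate 3 kept it. The list had no call with the replicate block, without the trend, without a filter or with the filter at 5 FPKM. Nor had it any at a pseudocount of 0.1, with the most abundant transcript or with the cattle and yak libraries alone. Quantile normalisation gave 1 higher call and no lower one. Without yak replicate 1, 3 genes were higher and none lower, and without yak replicate 3, none was higher and 3 were lower. CLU, a secreted chaperone of Sertoli cells, had 353, 310 and 253 FPKM in cattle and 293, 358 and 339 in yak. Of 19 Leydig cell genes, IGF1, the growth factor, was lower (-1.28), a call lost without cattle replicates 2 or 3 (adjusted p = 0.0607 and 0.0757). INSL3, the Leydig cell hormone, had 261, 289 and 149 FPKM in cattle and 214, 515 and 505 in yak, so that yak replicate 1 lay within the cattle range and the other yak libraries above it (0.77, 95% interval -0.03 to 1.56, not called).

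Of 27 extracellular matrix genes tested, 6 were lower in yak and none higher (22.2% called, against 10.7% of all genes called lower), with a median log2 fold change of -0.58. Without yak replicate 1 the count was 3 and the median -0.32. The count was 9 without yak replicate 3, and 1 to 2 without any of the cattle libraries, where cattle replicate 3 gave 1. LAMB2, COL1A1 and NID1, of basement membrane and fibrous matrix, lost the call without yak replicate 1, as they did without any 1 of the cattle libraries, and DCN and FBLN1 kept it without yak replicate 1; all but DCN were named after their values were seen. COL4A2, a collagen of basement membranes, was the 1 call that held. It had 6.78, 12.3 and 10.5 FPKM in cattle and 0.952, 1.22 and 0.688 in yak, a log2 fold change of -2.44 ± 0.27 (SE; limma adjusted p = 0.000207), and yak replicate 1 lay between the other yak libraries. DCN, the proteoglycan decorin, had 14.2, 13.8 and 16.3 against 1.58, 6.75 and 7.56 (-1.50), a call lost without cattle replicates 1 or 3 (adjusted p = 0.0512 and 0.0626).

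**Figure D4:**
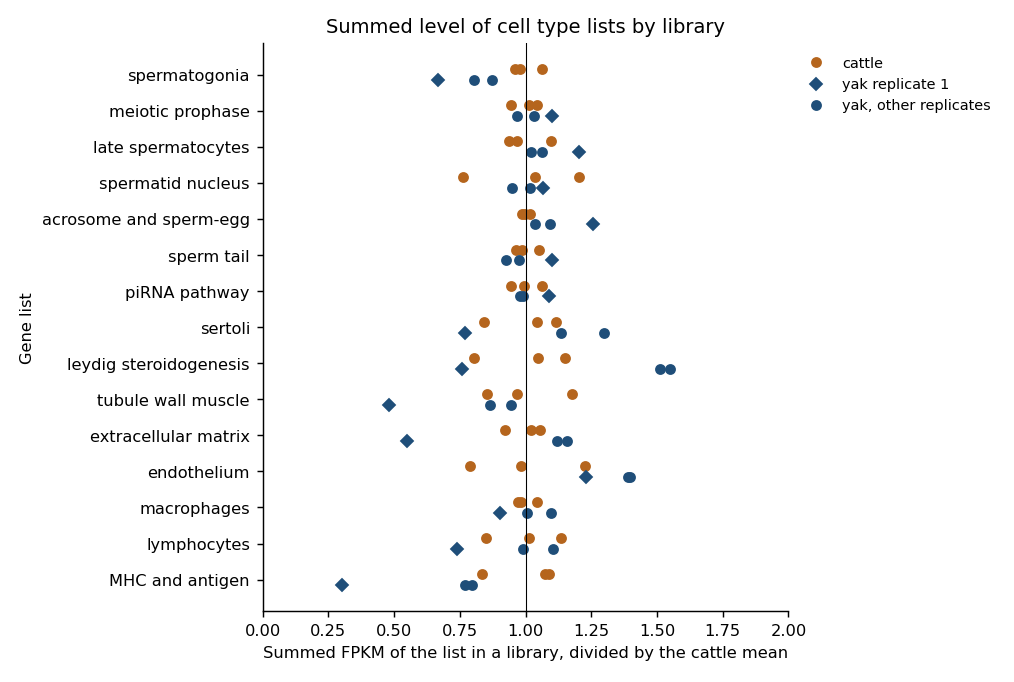
Summed FPKM of each cell type list in each library, divided by the cattle mean of that list, on the x axis, with 1 row per list on the y axis. Circles are libraries and the diamond is yak replicate 1. The diamond lies lowest of the 6 libraries for spermatogonia, Sertoli, Leydig, tubule wall, matrix, macrophage, lymphocyte and MHC genes, and highest for meiotic, late spermatocyte, acrosome, sperm tail and piRNA genes.

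Endothelial genes were split. Of 12 tested, 3 were higher and 1 lower (33.3% called, against 19.1% of all genes). Of these, 2 higher and 1 lower call held, the same numbers as without yak replicate 1. VWF, the clotting protein stored in vessel walls, had 2.36, 4.42 and 2.14 FPKM in cattle and 12.1, 11.4 and 9.003 in yak (1.61 ± 0.21 SE, limma adjusted p = 0.000561). FLT1, a receptor of vascular endothelial growth factor, had 1.79, 1.14 and 1.60 against 5.55, 3.11 and 5.02 (1.13). ERG, a transcription factor of the same cells, was lower at 0.819, 1.31 and 1.15 against 2.47, 2.47 and 2.52 (-0.74), and was named after its values were seen. Yak replicate 1 was not the lowest yak library for VWF or FLT1.

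Of 12 genes of the muscle-like tubule wall, TPM2 was higher and MYH11 lower (16.7% called, against 19.1% of all genes), and neither call held. For MYH11 the adjusted p was 0.0927 without yak replicate 1 and 0.112 and 0.138 without cattle replicates 2 and 3. For TPM2 it was 0.0526 to 0.0767 without cattle replicates 2 or 3 or yak replicates 1 or 2. The most abundant transcript of TPM2 taken alone had a log2 fold change of -0.061, opposite in direction to the gene.

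Macrophage calls were lower and the lymphocyte calls that held were higher. Of 16 macrophage genes, 4 were lower and none higher, with a median of -0.52 (-0.22 without yak replicate 1, where 1 was higher and 2 lower). SPI1, the master transcription factor of these cells, had 1.92, 2.23 and 2.23 FPKM in cattle and 0.899, 0.453 and 0.438 in yak (-0.98), and CSF1R, the receptor of their growth factor, 3.26, 2.56 and 2.38 against 0.456, 1.54 and 1.07 (-0.92). Both calls held, and CSF1R was named after its values were seen. The most abundant members were not called. AIF1 had 107, 106 and 109 against 141, 138 and 114 (0.28), without overlap. MRC1, the mannose receptor, had 22.6, 25.6 and 29.4 against 20.1, 38.0 and 36.1 (0.23). CD74 had 30.5, 26.6 and 22.5 against 10.8, 27.4 and 20.7 (-0.50).

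Of 14 lymphocyte genes, 2 were higher and 2 lower (28.6% called, against 19.1% of all genes), and only the higher calls held. No gene of the list was lower without yak replicate 1, nor without cattle replicate 1 or cattle replicate 2. IL7R, the interleukin 7 receptor of T cells, had 0.401, 1.06 and 1.27 FPKM in cattle and 5.84, 7.28 and 8.80 in yak (2.13 ± 0.31 SE, limma adjusted p = 0.00129). GZMB, a granzyme of killer cells, had 0.824, 0 and 0.0739 against 1.48, 1.35 and 1.51 (0.97); a further gene of the same symbol was below the filter. CD4 was under 0.08 FPKM in every cattle and yak library. S100A12, a protein of neutrophils, was higher at 45.0, 41.1 and 38.7 FPKM in yak against 21.3, 7.59 and 7.25 (1.87), while S100A8 and S100A9, its usual companions, were under 1.2 FPKM in all 6.

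Of 19 genes of antigen presentation, 3 were lower and none higher (15.8% called, below the 19.1% of all genes), and 2 calls held. PSMB8, a subunit of the immunoproteasome, had 16.2, 14.4 and 12.3 FPKM in cattle and 3.03, 6.62 and 7.24 in yak (-1.26). CD1D, which presents lipids, had 1.33, 1.27 and 1.54 FPKM in cattle and was listed at 0 in all 3 yak libraries. B2M, the light chain of MHC class I, had 227, 284 and 176 against 47.0, 147 and 153 (-1.13, 95% interval -2.03 to -0.23, not called). Class I and II genes are highly variable between animals.

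Of 29 interferon-induced genes, 1 was higher and 4 lower (17.2% called, below the 19.1% of all genes), and the higher call alone held. Without yak replicate 1, 2 were lower, against 3 and 7 without yak replicates 2 and 3. Without any 1 of the cattle replicates, 1 was lower. IFIH1, a sensor of viral RNA, had 11.2, 7.85 and 10.2 FPKM in cattle and 21.8, 25.5 and 21.9 in yak (1.17 ± 0.15 SE, limma adjusted p = 0.000487). IFI6, an interferon-induced protein of the endoplasmic reticulum, had 11.001, 27.2 and 14.4 against 0.953, 4.66 and 7.37 (-1.94), a call lost without cattle replicates 2 or 3 (adjusted p = 0.0864 and 0.0533). Of 4 tested defensins, SPAG11B was lower and DEFB123 higher. DEFB123 lost its call without cattle replicates 2 or 3 or yak replicates 2 or 3 (adjusted p = 0.0662 to 0.0841), and SPAG11B lost it at a pseudocount of 0.1 (adjusted p = 0.185).

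Of 78 cytosolic ribosomal protein genes, 3 were higher and 11 lower (17.9% called, against 19.1% of all genes), and 1 higher and 7 lower calls held. RPS20 had 349, 344 and 320 FPKM in cattle and 125, 116 and 155 in yak (-1.36 ± 0.14 SE, limma adjusted p = 0.000118), and RPL23A 125, 104 and 128 against 55.3, 46.6 and 47.4 (-1.24). Both are subunits of the ribosome, whose genes have many processed copies in mammalian genomes, so that their reads can be split. Whether they were split here was not tested. The list's median was -0.07, close to that of all genes, and RPLP1, its most abundant member, had 1098, 1426 and 1270 against 1303, 1466 and 1542 (0.19).

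EEF1A1, the elongation factor that brings transfer RNA to the ribosome, had 910, 675 and 1051 FPKM in cattle and 383, 352 and 383 in yak (-1.21 ± 0.19 SE, limma adjusted p = 0.00177). It was 1 of 15 genes often used as references, of which 2 were higher and 4 lower (40.0% called, against 19.1% of all genes). GUSB, a lysosomal glucuronidase, was lower at 1.03, 1.10 and 2.63 against 5.03, 5.29 and 5.87 (-1.36), and PPIA, a prolyl isomerase, was higher at 680, 627 and 723 against 520, 497 and 454 (0.46). The call of PPIA was lost without cattle replicates 2 or 3 or yak replicates 1 or 3 (adjusted p = 0.0631 to 0.0822). Of 39 proteasome genes, 2 were higher and 2 lower (10.3% called, below the 19.1% of all genes). The lower ones, PSMB8 and PSMB10 (-1.04), are both subunits of the immunoproteasome.

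Of 26 hypoxia genes, 5 were lower in yak and 1 higher, a share of 23.1% near the 19.1% of all genes, and 4 lower calls and the higher one held. EGLN3, an oxygen-sensing hydroxylase that marks hypoxia-inducible factors for breakdown and is itself induced by them, had 4.35, 3.41 and 5.86 FPKM in cattle and 2.16, 1.78 and 1.46 in yak (-0.97 ± 0.17 SE, limma adjusted p = 0.00361). NDRG1, a stress gene induced by hypoxia, had 3.93, 3.36 and 4.07 against 0.741, 1.64 and 2.36 (-0.94). EPAS1, which encodes hypoxia-inducible factor 2 alpha, had 8.21, 7.51 and 7.92 against 2.85, 5.14 and 4.88 (-0.78), and VHL, which binds the marked factors, was higher at 13.6, 15.9 and 17.0 against 8.67, 11.1 and 10.5 (0.57). The last 2 genes were named after their values were seen. The median of the list was -0.01, and LDHA, a glycolytic target, had 113, 101 and 98.2 against 119, 108 and 131 (0.20).

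Of 41 antioxidant genes, 3 were higher and 3 lower (14.6% called, below the 19.1% of all genes). GSTP1, a glutathione transferase, had 13.7, 5.10 and 8.74 FPKM in cattle and 35.1, 49.6 and 53.2 in yak (2.27 ± 0.29 SE, limma adjusted p = 0.000537), while GSTO1, of the omega class of that family, had 5.51, 18.3 and 16.6 against 1.13, 1.58 and 1.76 (-2.39). Both calls held. GSTM3, the most abundant member, had 1576, 1666 and 1634 against 1781, 1639 and 1667 (0.06, 95% interval -0.27 to 0.39). Without yak replicate 1, 6 genes of the list were higher and 2 lower.

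Of 26 heat shock genes, 1 was higher and 4 lower, a share of 19.2% near the 19.1% of all genes. Lower calls numbered 2 without yak replicates 1 or 3 or any 1 of the cattle replicates, and 4 without yak replicate 2. The 2 lower calls that held included HSPD1, the mitochondrial chaperonin, at 22.8, 32.4 and 26.0 FPKM in yak against 44.5, 51.1 and 45.8 in cattle (-0.79). Of 24 sterol synthesis genes, 2 were higher and 2 lower (16.7% called, below the 19.1% of all genes), and 1 call held. This was MVK, mevalonate kinase, higher at 21.8, 14.98 and 19.8 against 8.79, 9.57 and 12.7 (0.80). Of 17 genes of apoptosis and p53, MDM2, the ubiquitin ligase of p53, was lower at 5.45, 7.13 and 8.04 against 9.996, 12.1 and 13.8 (-0.72). None of 16 immediate early genes was called in limma (BH-adjusted).

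**Figure D5:**
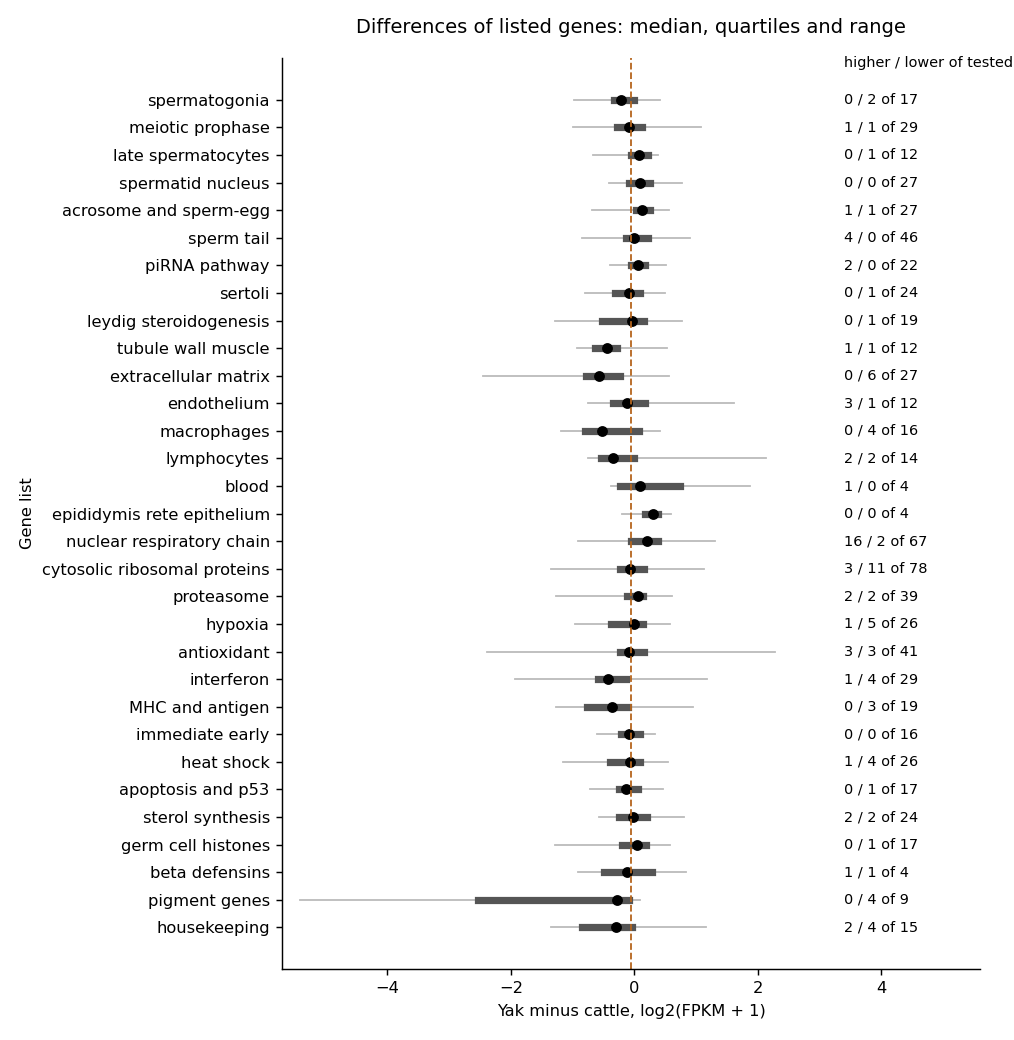
Differences of the genes in 31 lists, on the x axis as yak minus cattle on the log2(FPKM + 1) scale, with 1 row per list on the y axis. Dots are medians, thick bars the middle 50% and thin lines the range, and the numbers give higher and lower calls of genes tested. The dashed line is the median of all genes, -0.06. Medians lie between -0.58 for extracellular matrix and 0.30 for epididymis and rete epithelium, and the pigment list reaches furthest down, to MC1R.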

How the data were processed

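FPKM values per transcript were computed and deposited by the authors; the submitters' processing notes name UMD3.1 as build and, among their tools, StringTie 1.3.4 and HISAT2 2.0.5 beside Cufflinks, Bowtie and Trimmomatic, without saying which of them gave the FPKM. Read counts, and so the depth per library, are not given in the sources used here, and no counting interval can be set; precision rests on 3 libraries per group. FPKM were summed per gene (19994 genes from 22118 transcripts), filtered at 1 in at least 3 of 9 libraries and tested as log2(FPKM + 1) with limma 3.58.1 (R 4.3.3; group term, moderation with a trend), using all 9 libraries for the spread and the yak minus cattle contrast. Fold changes on this scale understate those of low genes. P-values are two-sided and Benjamini-Hochberg adjusted, with calls under 0.05. On simulated data the fit called 25.0%, 83.3% and 100% of log2 changes of 0.5, 1 and 2, and 4.17% of its calls were false. The simulation gave each gene the same spread in all groups and changed only genes above a set level. It therefore did not test low genes or a spread that differs in the cattle-yak libraries. Animals were grouped by title.

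Named genes were the 15 highest and 15 lowest (group mean of at least 5 FPKM), the 5 most abundant near-absent genes in each direction, the 3 most abundant and 2 most changed called members of each of 32 lists, the 5 widest transcript gaps and MC1R, PMEL and KCNAB1; some were left out of the text. The comparison, lists and named genes were chosen with earlier results of these data known. Gene order came from a RefSeq table of another build (12495 of 12873 symbols found), so calls by chromosome and coordinates were not given. The circRNA table and the small RNA samples were not used here. Alternatives covered the pseudocount, filter, scaling, libraries in the fit, moderation, replicate block, transcript choice and leaving out each replicate.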

Additional observations from a re-analysis of the deposited data

How the results depend on the processing

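The count of genes called stayed within 1.5 times of 2692 in the fits that kept all replicates, from 1957 (at least 5 FPKM) to 3041 (median-ratio scaling). The count with an absolute log2 fold change of at least 1 was 466 with the filter at 5 FPKM and 1111 with a pseudocount of 0.1. When 1 replicate was left out, genes called ranged from 1760 (without cattle replicate 2) to 2237, genes lower in yak from 962 (without cattle replicate 2) to 1312, genes higher from 798 to 988, genes with the larger change from 644 to 746, and list genes from 28 to 40 higher and 52 to 79 lower; the fits have fewer samples. With the most abundant transcript alone, the log2 fold changes of FSHR (0.0686), ZC3H14 (0.59) and TPM2 (-0.0615) were reversed, and the cause was not tested. Of 98 called named genes, 15 lost the call in a fit with all replicates and 26 in a fit without 1 replicate. With the replicate block, 2432 genes were called. Same-numbered libraries did not deviate together (correlations -0.077, -0.023 and -0.122). With 3 libraries per group this cannot exclude that the numbers pair the animals. The mitochondrial sum differed by -5457 FPKM, and by -5975 after median-ratio scaling. Without counts, depth limits cannot be given, and low genes rest on a few FPKM.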
